A study of Mus musculus with 44 samples.

Results

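The growth hormone and insulin-like growth factor (IGF) axis was followed in mouse liver through 10 genes: Igf1, Ghr, Igfals, Socs2, Stat5b and Igfbp1, Igfbp2, Igfbp3, Igfbp4 and Igfbp5. The genes were given as a list of names and matched by symbol to Ensembl identifiers. All 10 were present among the 35249 genes of the count table, and all 10 passed the filter on low counts that left 14862 genes for testing. They were read in 44 liver libraries that fall into 9 groups of genotype and diet. Wild type (WT) mice, mice lacking the kinase gene Ripk3 (Ripk3KO, labelled Ripk3-/-) and mice lacking the pseudokinase gene Mlkl (MlklKO, labelled Mlkl-/-) were put on a diet at 2 months of age and kept on it for 6 months. Controls ate normal chow, and the other mice ate a choline deficient diet that was low (CD-LFD) or high (CD-HFD) in fat. The control, CD-LFD and CD-HFD groups held 6, 6 and 6 WT libraries, 6, 3 and 4 Ripk3KO libraries, and 6, 4 and 3 MlklKO libraries. Both knockouts were used as models in which necroptosis, a form of lytic cell death, is blocked. The labels give neither the strain nor the sex of the mice, nor the tissue range of the knockouts, and they do not state that each library is a separate mouse, so p-values measure the spread between these libraries.

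Pituitary growth hormone binds the growth hormone receptor (Ghr) on hepatocytes and activates the kinase JAK2 and the transcription factor STAT5B, which drives transcription of Igf1, Igfals and Socs2. SOCS2 is a feedback inhibitor of the receptor. Hepatocytes are the main source of circulating IGF1, most of which travels in a complex with IGFBP3 and the acid-labile subunit encoded by Igfals. The other binding proteins hold smaller pools of IGF1, and Igfbp1 is known as a gene that insulin represses and fasting raises through FOXO factors. The pulsatile secretion of growth hormone in males also sets the male pattern of liver gene expression.

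For 2 of the 10 genes, the window from 250 bases before to 50 bases after a RefSeq start site (build GRCm38.p6) held a match to a motif of these pathways, and their upstream sequences are shown for that reason. The motifs searched on both strands were TTCNNNGAA, the core bound by STAT5, CAAAACA, the insulin response element bound by FOXO factors, and GTAAACA, the forkhead core. These were found in 8.29%, 6.29% and 3.65% of 32817 promoter windows of that length. In the lines below the capitals mark the match, and each stretch runs 5′ to 3′ on the plus strand.
Igfbp1, chr11:7197587-7197766, 200 to 21 bases before the start site: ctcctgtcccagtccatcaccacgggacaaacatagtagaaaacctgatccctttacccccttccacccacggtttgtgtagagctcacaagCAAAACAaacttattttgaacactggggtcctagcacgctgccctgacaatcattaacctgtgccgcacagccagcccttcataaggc
Igfals, chr17:24878031-24878210, 200 to 21 bases before the start site at 24878231: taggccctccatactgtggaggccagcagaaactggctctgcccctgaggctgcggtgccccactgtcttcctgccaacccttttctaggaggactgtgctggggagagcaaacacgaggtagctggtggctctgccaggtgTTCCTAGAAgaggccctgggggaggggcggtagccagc
Igfals, chr17:24877598-24877627, 246 to 217 bases before another start site at 24877844: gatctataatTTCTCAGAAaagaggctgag
The Igfbp1 match began 108 bases before the start site. The Igfals matches began 58 and 236 bases before their start sites, and the window of the former also held TGTTTAC, the reverse complement of GTAAACA, at 242 bases before the start. Socs2 was not matched in the promoter table, and in the windows of the other 7 genes these letters were not found. These matches describe the sequence and were not tested for binding.

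Total counts ranged from 2476268 to 12471844 in 43 libraries and reached 88204703 in WT CD-LFD replicate 3. Levels are CPM, counts divided by the library total after scaling by the trimmed mean of M values (TMM), and levels of different genes are compared only after division by exonic length (CPM per kb). Ripk3 was at 0 to 0.326 CPM in 12 of 13 Ripk3KO libraries and at 0.511 to 4.89 CPM in WT. The library labelled Ripk3KO control replicate 5 had 9 reads (1.26 CPM), above WT control replicates 1 to 3, which goes against its label. Mlkl was at 1.46 to 3.04 CPM in MlklKO controls against 2.28 to 6.15 in WT controls, and at 4.83 and 2.80 CPM in MlklKO CD-HFD libraries against 14.3 to 17.7 in WT. The library labelled MlklKO CD-HFD replicate 1 stood apart at 12.5 CPM, which goes against its label. The labels do not say which part of either gene was deleted. The log2 ratio of the clock genes Arntl and Dbp split the libraries into 11 with a high and 33 with a low ratio, at the widest gap that left at least 5 libraries on each side (1.03, between -3.71 and -2.68). The low class is itself wide: its WT controls were at -5.84 and -8.01 and the MlklKO controls at -5.01 to -3.71, so comparisons within this class do not set libraries of equal ratio side by side. The high class held 4 of 6 WT control libraries (all but replicates 2 and 4), all 6 WT CD-LFD libraries, WT CD-HFD replicate 3 and no knockout library, so on CD-LFD this class and genotype cannot be told apart. Hepatocyte markers (9 genes, including Alb and Apoa1) summed to at least 59000 CPM in the WT libraries, skeletal muscle markers summed to at most 1.11 CPM, and Ddx3y, a Y-linked gene, was at 29.5 to 123 CPM in all 44 libraries. Xist, which is expressed in females, was at 10.9 CPM (144 reads) in Ripk3KO CD-LFD replicate 3 and at most at 2.10 CPM elsewhere, so that library is among those doubted below.

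Per kb of exon, the binding proteins Igfbp4 and Igfbp2 were the most abundant of the 10 transcripts in WT livers on the control diet. Igfbp4 stood at 393 ± 165 CPM per kb (SD, n = 6) and Igfbp2 at 317 ± 65.3, and their ranges overlapped. Igf1 (68.0 ± 23.6) and Ghr (57.4 ± 12.9) followed, also with overlapping ranges and both below the lowest Igfbp2 value. Then came Igfbp1 (37.4 ± 48.9), which was too variable to place, and Igfals (30.1 ± 7.03). Stat5b (11.8 ± 3.79) and Igfbp3 (5.56 ± 1.32) were lower still and their ranges did not meet, although the highest Igfbp3 library (7.73) was close to the lowest Stat5b library (7.88). Socs2 (3.52 ± 2.94) overlapped Igfbp3, and Igfbp5 (0.999 ± 1.02) was the least abundant, with as few as 2 reads in a library. All levels refer to bulk tissue, in which fewer cells of a type and less RNA per cell cannot be told apart.

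**Figure D1:**
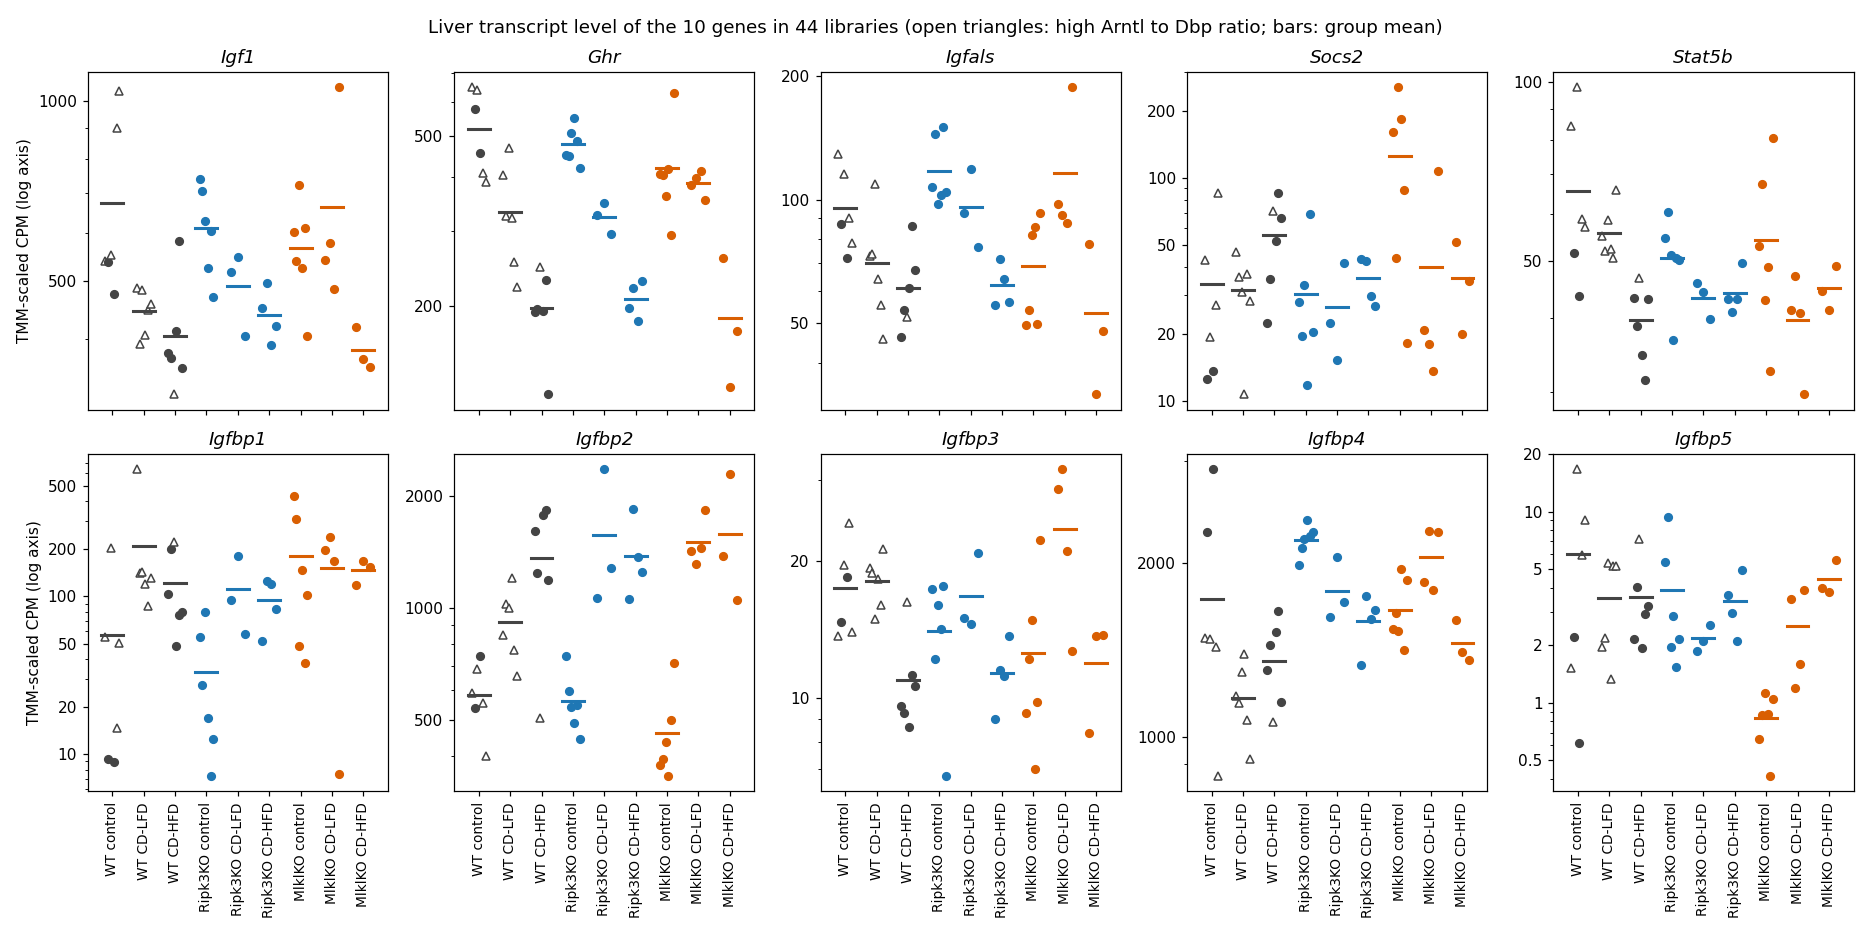
Each panel plots 1 gene, with TMM-scaled CPM on a log axis, 1 point per library and a bar at the mean of each of the 9 groups. Open triangles are libraries of the high Arntl to Dbp class. Ghr is lowest on CD-HFD and Igfbp2 lowest on the control diet in the means of each genotype, while Socs2, Igfbp1 and Igfbp5 spread widely within groups.

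Counted over the 10 genes, the choline deficient diets changed several in every genotype, at rates to be read against the large share of all genes that changed. In WT livers on CD-HFD 1 gene rose and 5 fell (adjusted p under 0.05, edgeR quasi-likelihood test). Of all tested genes 47.7% were called in this comparison, 23.5% as higher and 24.1% as lower. The 10 genes had a median log2 change of -0.65, against -0.07 over all genes. In Ripk3KO 1 rose and 4 fell, against 24.6% and 21.7% of all genes (46.3% either way), and in MlklKO 2 rose and 3 fell, against 24.9% and 20.3% (45.2%). On CD-LFD 2 rose and 3 fell in WT, against 13.7% and 14.0% of all genes (27.7%), and 1 rose in Ripk3KO, against 14.0% (24.1%). In MlklKO on CD-LFD 4 rose and 1 fell, against 19.7% and 18.3% (37.9%). Between CD-HFD and CD-LFD, 3 of the 10 were lower on CD-HFD in WT, against 7.40% of all genes (21.1% either way), and 4 in MlklKO, against 9.14% (23.7%). In Ripk3KO edgeR called none between these diets (8.83% of all genes), 2 had an unadjusted p under 0.05, and DESeq2 called 0. Fitted on only the compared groups, edgeR called 2 (20.6% of all genes), and in 1 class of the clock ratio alone it called 1 (12.5%).

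The receptor gene Ghr fell on CD-HFD in all 3 genotypes, and the values of the CD-HFD and control libraries did not overlap in any of them. In WT livers Ghr ran from 389.6 through a median of 515 to 649 CPM on the control diet, from 222 through 323 to 469 on CD-LFD, and from 125 through 197 to 247 on CD-HFD. In Ripk3KO livers it ran from 420.1 to 551 on the control diet and read 327, 348 and 296 CPM on CD-LFD and 198, 220.2, 185 and 229 CPM on CD-HFD. In MlklKO livers it ran from 294 to 628 on the control diet and read 384, 399, 414 and 353 CPM on CD-LFD and 259, 129 and 176 CPM on CD-HFD. The CD-LFD libraries overlapped both other diets in WT, lay between them without overlap in Ripk3KO, and were within the control range in MlklKO. The log2 change on CD-HFD was -1.39 ± 0.18 (SE) in WT (adjusted p = 2.59e-08), -1.20 ± 0.20 in Ripk3KO (6.44e-06) and -1.16 ± 0.23 in MlklKO (5.81e-05). Ghr was called lower here under every alternative tried and with each library left out in turn, the smallest changes being -0.90, -0.66 and -0.64 when libraries were scaled by their totals alone. On CD-LFD it fell by 0.65 ± 0.18 in WT (adjusted p = 0.00548; 0.0682 with library totals alone), while the changes of -0.56 ± 0.22 in Ripk3KO (0.0581) and -0.11 ± 0.20 in MlklKO (0.669) did not pass. From CD-LFD to CD-HFD Ghr fell by 0.75 ± 0.18 in WT (0.00162) and by 1.04 ± 0.24 in MlklKO (0.00128), while -0.64 ± 0.23 in Ripk3KO did not pass (0.0773). All 6 WT CD-LFD libraries were of the high clock class and 5 of the 6 WT CD-HFD libraries of the low class, so diet and clock class nearly coincide in this WT comparison. With clock class in the model the WT difference for Ghr was -0.61 (0.0837). The difference between the knockout and WT changes on CD-HFD was 0.19 ± 0.26 for Ripk3KO and 0.23 ± 0.28 for MlklKO, and neither passed (adjusted p = 0.876 and 0.716).

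Igf1, the ligand that the liver secretes into the circulation, was lower on CD-HFD by a smaller amount that depended on how libraries were scaled. In WT livers Igf1 read 539, 538, 552, 476, 900.1 and 1037 CPM in control replicates 1 to 6, ran from 392 through 452 to 486 on CD-LFD and from 323 through 375 to 582 on CD-HFD. WT control replicates 5 and 6 stood far above the other 4, and WT CD-HFD replicate 5 overlapped the control group. The log2 change on CD-HFD was -0.74 ± 0.18 in WT (adjusted p = 8.17e-04), -0.48 ± 0.20 in Ripk3KO (0.0484) and -0.57 ± 0.23 in MlklKO (0.0361). With library totals alone these became -0.27 (adjusted p = 0.198), 0.05 (0.844) and -0.04 (0.889), so the direction turned in Ripk3KO. With RLE size factors the Ripk3KO and MlklKO changes were -0.40 (0.118) and -0.50 (0.0746). Without WT control replicates 5 and 6 the WT change was -0.38 (adjusted p = 0.0551), and among libraries of the low clock class alone it was -0.23 (0.44). In Ripk3KO the call held in 3 of 10 fits that each left out 1 library (adjusted p up to 0.124 without CD-HFD replicate 3), and in MlklKO in 4 of 9 (up to 0.101 without CD-HFD replicate 4). On CD-LFD Igf1 fell in WT by 0.60 ± 0.18 (adjusted p = 0.0116), which became -0.31 (0.182) with library totals alone and -0.22 (0.235) with 6 doubted libraries left out. Those 6 were chosen after seeing the data and are WT control replicates 5 and 6, Ripk3KO control replicate 5, Ripk3KO CD-LFD replicate 3, MlklKO CD-LFD replicate 4 and the library labelled MlklKO CD-HFD replicate 1. Several of them are extreme in some of the genes followed here, so all values without these libraries are descriptions. In knockout livers on CD-LFD the change was -0.32 ± 0.22 in Ripk3KO and 0.23 ± 0.20 in MlklKO, neither of which passed (adjusted p = 0.292 and 0.372). From CD-LFD to CD-HFD Igf1 fell in MlklKO by 0.80 ± 0.24 (adjusted p = 0.0137), where the groups did not overlap, and by 0.48 (0.141) without MlklKO CD-LFD replicate 4, the library at 1053 CPM.

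The ratio of Igf1 to Ghr was higher on CD-HFD in the group means of every genotype. The log2 ratio of Igf1 to Ghr counts, which no scaling can alter, was 0.34 ± 0.74, 0.35 ± 0.30 and 0.45 ± 0.61 (SD) in WT, Ripk3KO and MlklKO controls and 1.03 ± 0.39, 1.08 ± 0.14 and 1.08 ± 0.41 on CD-HFD. The CD-HFD range overlapped the control range in WT and MlklKO and not in Ripk3KO. Across the 9 group means Igf1 and Ghr were correlated (Pearson r = 0.93), though they did not order the groups identically. After subtraction of group means their correlation over the 44 libraries was -0.23, a description in which all points share the library scaling.

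Igf1os, a gene on the opposite strand that lies within Igf1 without overlapping its exons, had 968 reads in all libraries together. The genes whose levels across the 9 group means were most like those of Igf1, among 11079 genes compared, were Copz1 (r = 0.98), Fah (0.98), Aadac (0.97), Serpinf1 (0.97) and Mtch2 (0.96). Within groups, over 44 libraries, they were Alkbh1 (0.86), Ppp4r3a (0.80), Amn1 (0.79), Atf4 (0.78) and Ppan (0.78). These r values are the highest among 11079 genes, and those across group means rest on 9 points. No gene appeared in both lists, which for such short lists carries little information.

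Of the signalling genes, Stat5b, which encodes the transcription factor downstream of the receptor, was lower on CD-HFD in WT livers. It ran from 43.7 through 57.9 to 98.1 CPM on the control diet and from 31.5 through 41.0 to 46.7 on CD-HFD, a log2 change of -0.73 ± 0.17 (adjusted p = 3.98e-04). The ranges met at WT control replicate 4. With library totals alone the change was -0.22 (adjusted p = 0.299), and in the low clock class alone -0.27 (0.324). Stat5b was also lower on CD-HFD than on CD-LFD in WT, by 0.49 ± 0.17 (0.0301), with no overlap between the groups, a call that held in 7 of 12 fits that left out 1 library (up to 0.0749 without WT CD-HFD replicate 5). With clock class in the model this difference was -0.07 (0.904), and with library totals alone -0.29 (0.249). In Ripk3KO and MlklKO the changes were -0.19 ± 0.19 and -0.27 ± 0.21 (adjusted p = 0.414 and 0.300), and both were positive, at 0.34 and 0.26, with library totals alone.

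Socs2, the STAT5 target that feeds back on the receptor, varied more between libraries of a group than between diets in WT and Ripk3KO. WT control replicates read 43.1, 12.5, 19.2, 13.5, 26.9 and 85.8 CPM, and the CD-HFD libraries ran from 22.4 through 59.1 to 85.5. The change of 0.72 ± 0.51 did not pass (adjusted p = 0.248). It was 1.31 (0.0195) without the 6 doubted libraries, which include replicate 6, the highest Socs2 control at 85.8 CPM. Leaving out that library raises the change by itself, so this value adds no support. In MlklKO controls Socs2 read 162, 43.9, 257, 184, 88.3 and 18.2 CPM, so 4 of 6 libraries lay above every WT control library. This group was 1.90 ± 0.52 log2 units above WT controls (adjusted p = 0.00573), a difference that was called in all 12 fits that left out 1 library. From that level Socs2 fell in MlklKO by 1.65 ± 0.59 on CD-LFD (adjusted p = 0.0243) and by 1.83 ± 0.66 on CD-HFD (0.0222). The CD-LFD libraries read 20.8, 18.03, 13.6 and 108 CPM, and without replicate 4, the high one, the fall was 2.85 with the other doubted libraries also left out. The call on CD-LFD was lost without MlklKO CD-LFD replicate 1, 2 or 3 or control replicate 3 (adjusted p = 0.0881, 0.0856, 0.0886 and 0.0715), and that on CD-HFD without CD-HFD replicate 2 or 4 or control replicate 3 (0.103, 0.0646 and 0.0604). The difference between the MlklKO and WT changes on CD-HFD was -2.55 ± 0.83 (adjusted p = 0.0684), and it passed in the low clock class alone (-3.94, 0.0339).

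Cish, another early STAT5 target from the wider list, tracked Socs2 within groups (Pearson r = 0.59 over 44 libraries). In MlklKO CD-LFD replicate 4, where Socs2 was 108 CPM, Cish read 37.7 CPM against 4.62 to 6.74 in the other 3 libraries of its group. The same library had the highest Igf1 (1053 CPM against 486 to 579) and Igfals (188 against 87.9 to 97.8) and the lowest Igfbp1 (7.45 against 167 to 236). WT control replicate 6 paired high Igf1 (1037 CPM) with the highest Socs2 (85.8) and Cish (49.6) of its group. WT control replicate 5, with Igf1 at 900.1 CPM, had 26.9 CPM of Socs2 and 0 reads of Cish.

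Igfals and Igfbp3, whose products carry IGF1 in the large serum complex, fell on CD-HFD in WT livers, and Igfals also in Ripk3KO. Igfals ran from 71.9 through 88.6 to 129 CPM in WT controls and from 46.2 through 57.3 to 86.0 on CD-HFD, a change of -0.65 ± 0.22 (adjusted p = 0.0119) with overlapping groups, and -0.30 (0.426) in the low clock class alone. In Ripk3KO it ran from 97.6 to 150.2 CPM on the control diet and read 55.3, 71.7, 64.1 and 56.4 CPM on CD-HFD, so the groups did not overlap, and the change was -0.93 ± 0.25 (adjusted p = 0.00191). In MlklKO it was -0.38 ± 0.27 (0.248), and -0.78 (0.0191) without the 6 doubted libraries. With library totals alone none of the 3 passed, at -0.16, -0.40 and 0.12, so the direction turned in MlklKO. Igfbp3 went in WT from 17.4 ± 4.13 to 10.9 ± 2.77 CPM (log2 change -0.65 ± 0.23, adjusted p = 0.0177). The adjusted p was 0.0506 without WT control replicate 5, and the change was -0.15 (0.622) with library totals alone. WT CD-HFD replicate 3 read 16.3 CPM and the other 5 libraries 8.66 to 11.2. The changes in Ripk3KO and MlklKO were -0.31 ± 0.25 (0.332) and -0.07 ± 0.28 (0.857), and the differences from WT, 0.34 ± 0.34 and 0.58 ± 0.36, did not pass (0.792 and 0.401).

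On CD-LFD both genes were higher in MlklKO than in their controls. Igfals read 97.8, 91.5, 87.9 and 188 CPM against 49.3, 53.9, 81.9, 85.6, 49.8 and 92.9, a rise of 0.75 ± 0.24 (adjusted p = 0.0116) that became 0.42 (0.173) without CD-LFD replicate 4. Igfbp3 read 28.7, 31.7, 21.0 and 12.7 CPM against 7.002 to 22.2, a rise of 0.90 ± 0.25 (adjusted p = 0.00391) that was called in all 10 fits that left out 1 library. Here replicate 4 was the lowest of the 4, not the highest. Both fell between CD-LFD and CD-HFD in MlklKO, Igfals by 1.13 ± 0.29 (adjusted p = 0.00369) and Igfbp3 by 0.97 ± 0.30 (0.0150; 0.0894 without the library labelled MlklKO CD-HFD replicate 1, and 0.0505 and 0.0612 without MlklKO CD-LFD replicate 1 or 2). The Ripk3KO changes between these diets, -0.63 ± 0.28 for Igfals (0.164) and -0.57 ± 0.29 for Igfbp3 (0.237), did not pass, though the groups did not overlap. In WT Igfbp3 also fell between these diets, by 0.72 ± 0.22 (0.0167), but the call was lost with clock class in the model (-0.44, 0.382) and with library totals alone (-0.53, 0.0950). The 1 CD-HFD library of the high clock class had 16.3 CPM, within the CD-LFD range of 14.9 to 21.2, and the 5 of the low class had 8.66 to 11.2.

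**Figure D2:**
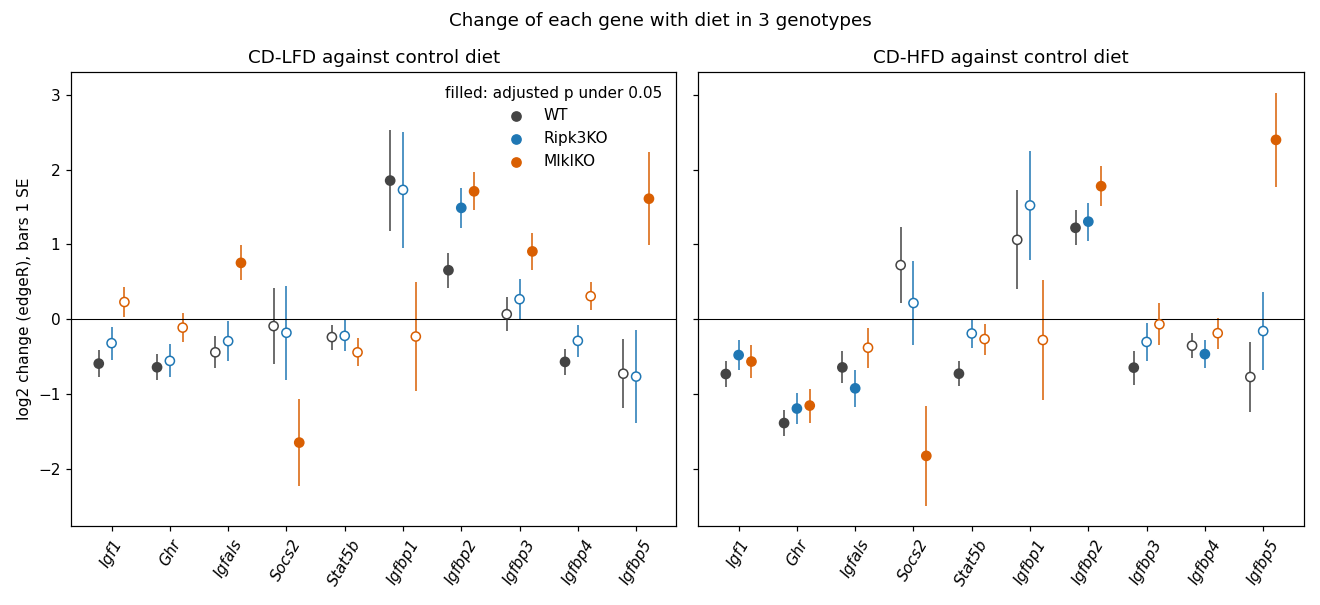
Points are log2 changes from the control diet (edgeR) and bars are 1 SE, for CD-LFD on the left and CD-HFD on the right, coloured by genotype and filled where the adjusted p is under 0.05. Ghr on CD-HFD and Igfbp2 on both diets lie on the same side of 0 and are filled in all genotypes, while Igfbp1, Socs2 and Igfbp5 have the widest bars.

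Igfbp2, which encodes an abundant serum binding protein, rose on both choline deficient diets in every genotype. In WT livers it ran from 399 through 573 to 743 CPM on the control diet, from 658 through 924 to 1208 on CD-LFD, and from 506 through 1430.0 to 1840.0 on CD-HFD. In Ripk3KO livers it ran from 444 to 745 CPM on the control diet and read 1066, 2370.0 and 1284 CPM on CD-LFD and 1061, 1853, 1370.0 and 1254 CPM on CD-HFD. In MlklKO livers it ran from 352 to 709 CPM on the control diet and read 1429, 1311, 1449 and 1839 CPM on CD-LFD and 1382, 2305 and 1054 CPM on CD-HFD. Every knockout library on a choline deficient diet was above every knockout control library. In WT the groups overlapped, on CD-HFD through replicate 3 alone (506 CPM), the library of that group with the high clock ratio. The log2 change on CD-HFD was 1.22 ± 0.23 in WT (adjusted p = 3.46e-05), 1.30 ± 0.25 in Ripk3KO (4.87e-05) and 1.78 ± 0.27 in MlklKO (9.01e-07), each called under every alternative and every left-out library. On CD-LFD it was 1.49 ± 0.27 in Ripk3KO (9.26e-05) and 1.71 ± 0.25 in MlklKO (2.71e-06), likewise called in every fit. The WT change on CD-LFD, 0.65 ± 0.23 (adjusted p = 0.0312), was smaller, held in 7 of 12 fits that left out 1 library (up to 0.0790 without WT CD-LFD replicate 4) and was 0.54 (0.0969) without the 6 doubted libraries. The MlklKO rise on CD-LFD exceeded that of WT by 1.06 ± 0.34 (adjusted p = 0.0467), and the Ripk3KO rise by 0.83 ± 0.36 (0.536). The MlklKO difference passed in 4 of 22 fits that left out 1 library (up to 0.103 without MlklKO CD-LFD replicate 4).

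The ratio of Igfbp2 to Ghr describes their opposite movements within libraries. Both genes were already called in opposite directions on CD-HFD in these libraries, so a gap between controls and choline deficient diets adds no support. The log2 ratio of Igfbp2 to Ghr counts was between -0.25 and 0.76 in all 18 control libraries, with means of 0.17 ± 0.33, 0.22 ± 0.31 and 0.13 ± 0.36 (SD) in WT, Ripk3KO and MlklKO. On CD-LFD the means were 1.49 ± 0.34, 2.20 ± 0.54 and 1.95 ± 0.30, and on CD-HFD 2.70 ± 0.84, 2.71 ± 0.32 and 3.05 ± 0.96. No library on a choline deficient diet reached down to the control range, the lowest being WT CD-HFD replicate 3 at 1.03. CD-LFD and CD-HFD overlapped in WT through that library and in Ripk3KO, and did not overlap in MlklKO.

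**Figure D3:**
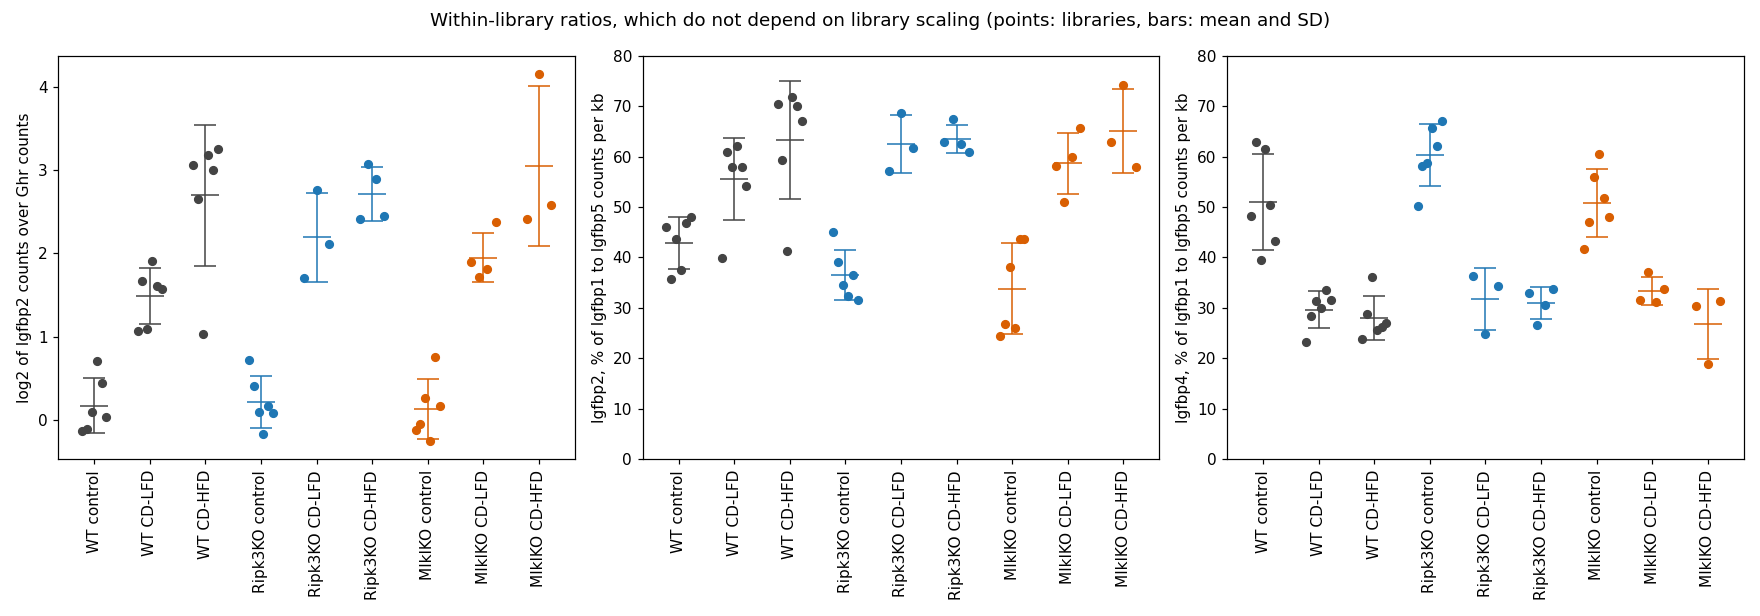
Points are libraries and bars are group means with SD: the log2 ratio of Igfbp2 to Ghr counts on the left, and the shares of Igfbp2 and Igfbp4 in the summed counts per kb of Igfbp1 to Igfbp5 in the middle and on the right. The left panel shows control libraries up to 0.76 and libraries on choline deficient diets from 1.03 upward, and the other panels show a larger mean share of Igfbp2 and a smaller one of Igfbp4 on both choline deficient diets.

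Igfbp4 had the highest mean level per kb of the binding proteins on the control diet in each genotype, and Igfbp2 had it on CD-HFD. Among the summed counts per kb of Igfbp1 to Igfbp5, Igfbp4 made up 50.9% ± 9.49, 60.3% ± 6.14 and 50.8% ± 6.75 in WT, Ripk3KO and MlklKO controls and 28.0% ± 4.34, 31.0% ± 3.16 and 26.9% ± 6.92 on CD-HFD. Igfbp2 made up 42.9% ± 5.14, 36.5% ± 5.02 and 33.8% ± 9.02 on the control diet and 63.3% ± 11.7, 63.4% ± 2.83 and 65.0% ± 8.36 on CD-HFD. The shares of the 2 genes overlapped across libraries in WT controls (39.6% to 62.9% for Igfbp4 and 35.7% to 48.1% for Igfbp2) and MlklKO controls (41.6% to 60.5% and 24.4% to 43.6%). In each genotype the Igfbp4 shares of the CD-HFD libraries lay below those of all control libraries. The log2 change of Igfbp4 itself on CD-HFD was -0.36 ± 0.17 in WT (adjusted p = 0.0795), -0.47 ± 0.19 in Ripk3KO (0.0413) and -0.19 ± 0.21 in MlklKO (0.480), and with library totals alone it turned to 0.15, 0.06 and 0.34. The Ripk3KO call held in 3 of 10 fits that left out 1 library (up to 0.136 without CD-HFD replicate 1). In WT controls the libraries of the low clock class, replicates 2 and 4, had 2261 and 2909 CPM and the other 4 had 857 to 1483. On CD-LFD Igfbp4 fell in WT by 0.57 ± 0.17 (adjusted p = 0.00993), and by 0.36 (0.0817) without WT control replicate 4. The CD-LFD libraries, all of the high clock class, had 918 to 1392 CPM, within the range of the 4 controls of that class, and with clock class in the model the change was -0.25 (0.225), and with library totals alone -0.26 (0.179). On CD-LFD Igfbp4 was higher in MlklKO than in WT by 0.81 ± 0.19 (adjusted p = 0.00950, and 0.0501 without MlklKO CD-LFD replicate 2). There the WT libraries all had the high and the MlklKO libraries the low clock ratio, and with clock class in the model the difference was 0.06 (0.999). The Ripk3KO difference from WT on CD-LFD was 0.62 ± 0.20 (0.150), and the groups did not overlap in either knockout.

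**Figure D4:**
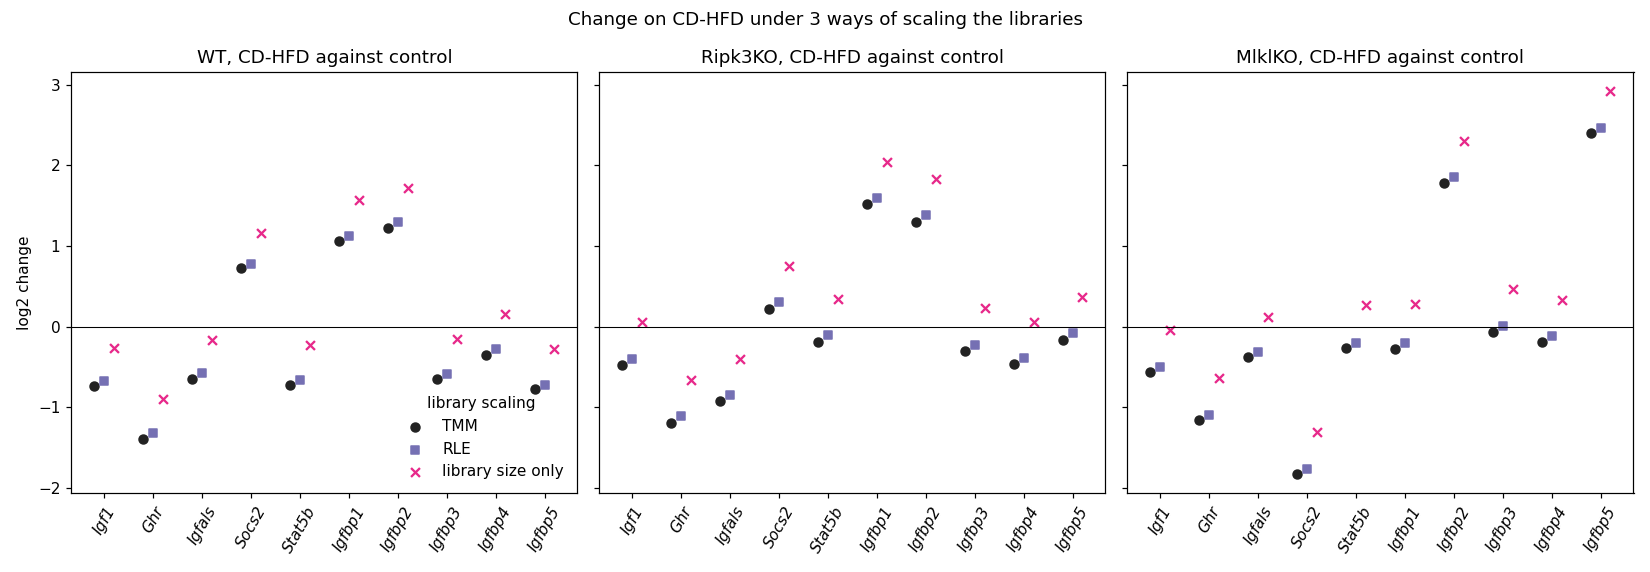
Points are log2 changes from control to CD-HFD for the 10 genes in each genotype, with libraries scaled by TMM, by RLE size factors or by library totals alone. Ghr stays below 0 and Igfbp2 above 0 throughout, whereas Igf1, Igfals, Stat5b, Igfbp3 and Igfbp4 all lie higher when only totals are used, between -0.40 and 0.46, and several cross 0.

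Library totals alone moved the median log2 change of all genes on CD-HFD from -0.07 to 0.43 in WT, from -0.05 to 0.49 in Ripk3KO and from -0.04 to 0.49 in MlklKO. In WT the split of all called genes moved from 3496 higher and 3586 lower to 6813 higher and 1020 lower. Hepatocyte markers moved with the same contrast: their summed level had medians of 136000, 139000 and 132000 CPM in WT, Ripk3KO and MlklKO controls and 65900, 81300 and 78700 on CD-HFD, with 9, 9 and 7 of the 9 genes called lower, against 24.1%, 21.7% and 20.3% of all genes. Over the same groups the summed stellate cell markers (12 genes) went from medians of 275, 225 and 262 CPM to 1020, 1010 and 1300.0, the cholangiocyte markers (8 genes) from 83.2, 68.0 and 107 to 949, 795 and 979, and the macrophage markers (10 genes) from 184, 134 and 124 to 671, 828 and 1160, with 6, 6 and 7 genes called higher and 2, 1 and 1 lower. Of all genes 23.5%, 24.6% and 24.9% were called higher. The endothelial markers (10 genes) went from 299, 233 and 233 to 176, 177 and 267. The part of these shifts in the changes of the 10 genes was not tested.

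Igfbp1, the insulin-repressed binding protein, had the widest spread of the abundant members. Estimates of its diet change in WT varied with the handling of clock class, and a dependence on that class was not tested. WT control replicates 1 to 6 read 55.2, 9.28, 203, 8.92, 14.6 and 50.8 CPM, and replicates 2 and 4, the low ones, had the low clock ratio. CD-LFD libraries ran from 86.7 through 135 to 639 CPM and CD-HFD libraries from 48.4 through 91.7 to 219. The rise on CD-LFD was 1.85 ± 0.67 (adjusted p = 0.0359), and 1.09 (0.219) without WT CD-LFD replicate 1, the library at 639 CPM. That call was also lost without WT control replicate 1, 2, 4 or 5 (adjusted p = 0.0622, 0.0843, 0.0836 and 0.0682), and with clock class in the model (1.54, 0.0916). On CD-HFD the change of 1.06 ± 0.66 did not pass (adjusted p = 0.190), but it was 3.50 (0.00901) among libraries of the low clock class alone, where only control replicates 2 and 4 remained, and 2.69 (0.0123) with clock class in the model. In Ripk3KO, whose libraries are all of the low class, controls read 55.0, 27.4, 80.01, 17.01, 7.26 and 12.5 CPM and CD-HFD libraries 51.8, 126, 119.9 and 83.7, a change of 1.52 ± 0.73 (adjusted p = 0.0840). In MlklKO the controls were already at 38.0 to 429 CPM and the change on CD-HFD was -0.28 ± 0.80 (0.802).

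The genes most like Igfbp1 within groups, over 44 libraries, were Trp53inp1 (r = 0.85), Irs2 (0.83), Tcp11l2 (0.79), Slc38a2 (0.76) and Klf11 (0.73). Irs2 encodes an insulin receptor substrate. In MlklKO CD-LFD replicate 4, where Igfbp1 was at 7.45 CPM, Irs2 was at 10.1 CPM against 40.3 to 57.1 in the other 3 libraries. In WT control replicate 3, where Igfbp1 was at 203 CPM, Irs2 was at 67.8 against 13.2 to 35.2.

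**Figure D5:**
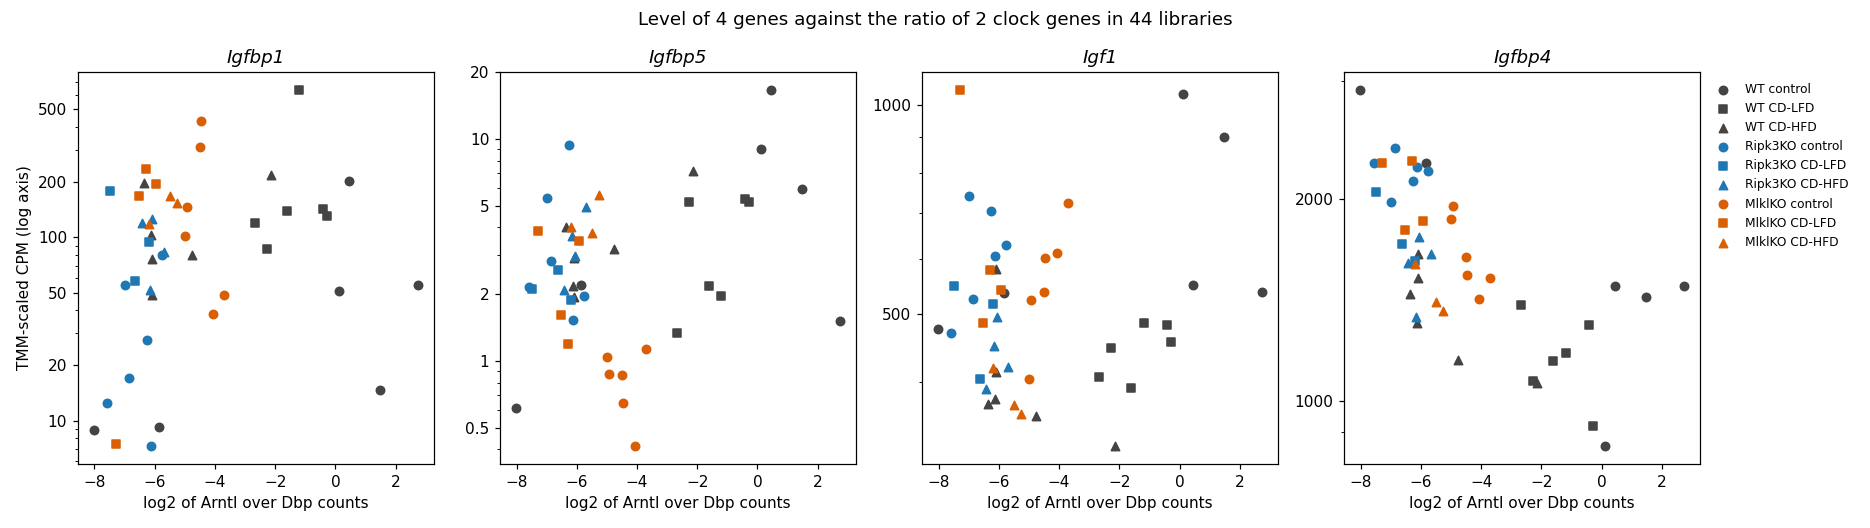
Each panel plots the TMM-scaled CPM of 1 gene on a log axis against the log2 ratio of Arntl to Dbp counts, with 1 point per library, coloured by genotype and shaped by diet. Igfbp4 is highest where the ratio is low, and the 11 libraries with log2 ratios of -2.68 or more are all WT.

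Igfbp5, the least abundant of the 10, was lower in MlklKO than in WT on the control diet and rose there with both diets. MlklKO controls ran from 0.414 through 0.872 to 1.13 CPM, on 3 to 9 reads each, and WT controls read 1.52, 2.20, 16.7, 0.615, 5.93 and 9.04 CPM, on 2 to 98 reads. The difference was -2.85 ± 0.56 (adjusted p = 2.09e-04) and was called in all 12 fits that left out 1 library. Among libraries of the low clock class, where the WT controls are replicates 2 and 4 at 2.20 and 0.615 CPM, it was -0.78 (0.513), and with clock class in the model -1.29 (0.204). In MlklKO Igfbp5 read 3.48, 1.19, 1.60 and 3.87 CPM on CD-LFD and 4.01, 3.78 and 5.598 CPM on CD-HFD, both above the whole control range. The rise was 2.40 ± 0.63 on CD-HFD (adjusted p = 0.00190, called in all 9 fits that left out 1 library) and 1.61 ± 0.62 on CD-LFD (0.0375, called in 4 of 10, up to 0.121 without CD-LFD replicate 1). In WT and Ripk3KO the CD-HFD changes were -0.78 ± 0.46 and -0.16 ± 0.53 (adjusted p = 0.168 and 0.828).

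Genotype was compared on each diet to ask whether blocking necroptosis altered the axis. On CD-HFD none of the 10 genes was called different from WT in either knockout, by edgeR or DESeq2, and 0 passed an unadjusted p under 0.05. Of all tested genes 0.377% and 0% were called in Ripk3KO and MlklKO, with 1297 and 1246 genes at an unadjusted p under 0.05. The estimates were 0.07 ± 0.20 and -0.08 ± 0.22 for Ghr, 0.02 ± 0.26 and 0.21 ± 0.28 for Igfbp2, and 0.12 ± 0.20 and -0.08 ± 0.22 for Igf1. Those with wider errors included -0.65 ± 0.57 and -0.65 ± 0.63 for Socs2 and -0.34 ± 0.73 and 0.28 ± 0.79 for Igfbp1. The knockout groups held 4 and 3 libraries, so sizeable differences could go uncalled. The latter group includes the library labelled MlklKO CD-HFD replicate 1, whose Mlkl level goes against its label. On the control diet none of the 10 was called by edgeR in Ripk3KO (4.47% of all genes called; 1 at an unadjusted p under 0.05, and 0 by DESeq2) and 2 were in MlklKO (27.1%), Socs2 higher (13.0% of all genes) and Igfbp5 lower (14.1%). On CD-LFD none was called in Ripk3KO (1.10%; 2 at an unadjusted p under 0.05, and 0 by DESeq2) and Igfbp4 was higher in MlklKO (2.56%, and 1.64% as higher).

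The change with diet differed from WT in MlklKO for 5 genes on CD-LFD (8.45% of all genes called) and 1 on CD-HFD (4.12%), and for none in Ripk3KO on either diet (0.0269% and 0.478%). In Ripk3KO 1 gene on each diet had an unadjusted p under 0.05, and DESeq2 called 0. On CD-LFD the differences in log2 change were 0.82 ± 0.27 for Igf1 (adjusted p = 0.0462), 1.20 ± 0.32 for Igfals (0.0149), 1.06 ± 0.34 for Igfbp2 (0.0467), 0.88 ± 0.25 for Igfbp4 (0.0235) and 2.34 ± 0.77 for Igfbp5 (0.0499). All 5 were positive, that is, the change with diet was more positive in MlklKO than in WT, a direction called for 4.37% of all genes on CD-LFD and 1.58% on CD-HFD. For Igfbp5 this went with the lower MlklKO control level, and on CD-LFD its level in MlklKO was still -0.51 ± 0.53 log2 units from that in WT (adjusted p = 0.711). Alternative settings ended several of these calls. Igfals and Igfbp4 were called with library totals alone, Igfals without the count filter, and Igfals and Igfbp2 with only the compared groups. With clock class in the model Igf1, Igfals and Igfbp5 were called, and Igfbp2 (0.84, 0.124) and Igfbp4 (0.55, 0.106) were not. On CD-LFD all WT libraries were of the high and all MlklKO libraries of the low class. Without WT control replicates 5 and 6, Igfals, Igfbp2 and Igfbp4 were called. The 5 differences rest partly on single libraries: without MlklKO CD-LFD replicate 4 they were 0.51 (0.226), 0.87 (0.0814), 0.95 (0.103), 0.83 (0.05, not called) and 2.10 (0.108). Igf1 was called in 7 of 22 fits that left out 1 library, Igfals in 21, Igfbp2 in 4, Igfbp4 in 19 (not without MlklKO CD-LFD replicate 2 or 4, or WT control replicate 4, at 0.0559, 0.05 and 0.0584) and Igfbp5 in 9 (1.62, 0.157, without WT control replicate 3). Without the 6 doubted libraries Igfals (0.92, 0.0487) and Igfbp4 (1.02, 0.00592) were called, with Socs2 (-3.35, 0.00368), and Igf1 was at 0.12 (0.784). In the reported fit Socs2 was at -1.56 ± 0.77 (0.204). That set was chosen after seeing the data. It holds libraries extreme in Socs2 or Igf1, such as MlklKO CD-LFD replicate 4 and WT control replicate 6, so these values are a description. On CD-HFD Igfbp5 differed by 3.17 ± 0.79 (adjusted p = 0.0161), and by 1.38 (0.343) in the low clock class. Without MlklKO CD-HFD replicate 4 or WT control replicate 3 the adjusted p was 0.0681 and 0.0571.

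Nearly all of the listed male-biased genes of the liver fell on CD-HFD in every genotype. The list was chosen with earlier results of these data known, so its counts are a description. Of 20 genes known as higher in male liver under pulsatile growth hormone, 20, 19 and 20 fell on CD-HFD in WT, Ripk3KO and MlklKO, with median log2 changes of -2.93, -2.90 and -3.24, against 24.1%, 21.7% and 20.3% of all genes. With library totals alone 18, 18 and 19 fell, against 6.86%, 4.96% and 4.89% of all genes. By the naming rule given below, the largest falls in WT were of the urinary protein gene Mup7 (-8.04 ± 0.77), the steroid enzyme gene Hsd3b5 (-6.65 ± 0.66) and the fatty acid elongase gene Elovl3 (-5.82 ± 0.57). Each had an adjusted p of at most 5.76e-11. Mup genes are near-identical copies, and reads may be split among them, so the value of Mup7 is uncertain. On CD-LFD 15, 11 and 9 of the 20 fell, against 14.0%, 10.1% and 18.3% of all genes, and 0, 1 and 2 rose, against 13.7%, 14.0% and 19.7%. Of 20 genes known as higher in female liver, 11 passed the filter on low counts. Among those 11, 6, 7 and 8 rose on CD-HFD, where 23.5%, 24.6% and 24.9% of all genes were called higher, and 2, 1 and 0 fell. Those that passed the filter include genes that passed only through the groups where they were high, so these counts are a description, and the levels of 3 of them are given without a test. Cyp2b9 was at 0.324 ± 0.458 CPM in WT controls and 12.8 ± 8.51 on CD-HFD (SD, n = 6 each). Cyp2a4 was at 1.55 ± 1.05 and 42.6 ± 24.3 CPM, and the neurotrophin receptor gene Ntrk2 at 3.95 ± 3.35 and 47.3 ± 17.7 CPM. Cyp17a1, a steroidogenic enzyme gene, fell by 0.96 ± 0.35 in WT (adjusted p = 0.0216).

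Other genes of the receptor pathway were called at rates near those of all genes. Of 16 genes of growth hormone and related cytokine signalling, 5 rose and 2 fell in WT on CD-HFD, 5 and 4 in Ripk3KO, and 4 and 5 in MlklKO, with median log2 changes of 0.24, -0.30 and -0.70 (0.72, 0.23 and -0.17 with library totals alone). Of all genes 23.5%, 24.6% and 24.9% were called higher and 24.1%, 21.7% and 20.3% lower in these comparisons, which also apply to the lists that follow. Sirpa, an inhibitory receptor of myeloid cells (3.52 ± 0.19 in WT, adjusted p = 4.25e-18), and the phosphatase gene Ptpn6 (1.40 ± 0.16, 1.13e-09) rose in all 3 genotypes, beside the macrophage markers given above. The prolactin receptor gene Prlr fell in all 3, by 1.45 ± 0.34 in WT (5.39e-04), 1.65 ± 0.40 in Ripk3KO (6.99e-04) and 2.08 ± 0.46 in MlklKO (2.53e-04). Bcl6, a repressor that opposes STAT5 in male liver, fell in WT by 1.23 ± 0.47 (0.0281) and in Ripk3KO by 1.85 ± 0.55 (0.00535), and was at -1.17 ± 0.60 in MlklKO (0.108).

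In the wider IGF system 12 of 18 listed genes passed the filter, of which 6 rose and 2 fell in WT on CD-HFD, 6 and 1 in Ripk3KO, and 4 and 1 in MlklKO. The receptor gene Igf1r rose by 1.04 ± 0.32 in WT (adjusted p = 0.00688), 1.85 ± 0.35 in Ripk3KO and 1.75 ± 0.37 in MlklKO. Igfbp7, a related secreted protein gene, rose by 2.24 ± 0.23 in WT (2.09e-10), and Htra1, which encodes a secreted protease, by 2.46 ± 0.48 (4.06e-05). The insulin receptor gene Insr fell by 0.65 ± 0.13 in WT (9.05e-05), 0.41 ± 0.15 in Ripk3KO (0.0225) and 0.53 ± 0.17 in MlklKO (0.00884). Irs1 fell in WT by 1.21 ± 0.40 (0.0109) and was at -0.64 ± 0.45 in Ripk3KO and -0.15 ± 0.48 in MlklKO (0.249 and 0.825).

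Most of the listed genes that insulin and feeding raise fell on CD-HFD in every genotype. Of 12 genes of the fed state, 11, 11 and 10 fell in WT, Ripk3KO and MlklKO and none rose, with median log2 changes of -2.23, -1.97 and -2.20. The desaturase gene Scd1 fell by 5.01 ± 0.51 in WT (adjusted p = 1.18e-10), the malic enzyme gene Me1 changed by -3.99 ± 0.50 (1.69e-08) and the lipogenic regulator gene Thrsp by -3.70 ± 0.59 (1.59e-06). Of 16 genes raised by fasting or FOXO factors, 1 rose and 4 fell in WT, 4 and 4 in Ripk3KO, and 4 and 1 in MlklKO. With library totals alone these counts became 7 higher and 1 lower, 6 and 0, and 7 and 0, where 45.8%, 46.2% and 42.8% of all genes were called higher and 6.86%, 4.96% and 4.89% lower. The hormone gene Fgf21 rose by 5.27 ± 0.51 in WT (3.43e-11), 2.54 ± 0.51 in Ripk3KO (8.49e-05) and 4.28 ± 0.62 in MlklKO (3.61e-07), to 49.9 ± 22.8, 9.71 ± 1.92 and 11.2 ± 5.33 CPM (SD). G6pc, the last enzyme of glucose release, fell by 2.91 ± 0.48 in WT (2.78e-06) and was at -0.32 ± 0.50 in Ripk3KO and -1.07 ± 0.57 in MlklKO (0.627 and 0.125).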

How the data were processed

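The authors deposited 1 table of read counts per Ensembl gene for 44 liver libraries. Per the submitters' processing notes, FastQC, STAR, HTSeq, edgeR and limma were used with build GRCm39 (mm39), and versions are not given in the sources used here. The library kit was directional per the labels' protocols, and the strand setting of the counting is not given. Symbols and exonic lengths came from GENCODE M21 (GRCm38): 34373 of 35249 identifiers had a symbol, and the other 876 held 0.0838% of counts. Promoter windows came from RefSeq (GRCm38.p6), whose coordinates are printed only with those sequences.

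Genes were tested with the quasi-likelihood F test of edgeR 4.0.16 (R 4.3.3) in 1 model with a mean for each of the 9 groups over all 44 libraries. Genes passed a filter on low counts (filterByExpr, minimum count 10), which kept 14862 genes holding 99.85% of counts. Libraries were scaled by TMM (factors 0.799 to 1.34). P-values were adjusted by Benjamini-Hochberg over all tested genes within each of 19 contrasts, with a threshold of 0.05, and each SE was taken as |log2 change| / sqrt(F). Total counts per library were 2476268 to 88204703. No 2 libraries of a group agreed within sampling noise (chi-square per degree of freedom 7.22 or more over 93 pairs).

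The 10 genes and the pathway and marker lists were chosen with earlier results of these data known. Of each pathway list, up to 3 genes with the largest rise and up to 3 with the largest fall in WT on CD-HFD could be named, and the genes of these lists named are among these, except Irs2, named for its likeness to Igfbp1, and Cish, which was chosen after its values were seen. Likeness was Pearson r of log2 CPM among genes with a mean log2 CPM of at least 1. The alternatives were RLE size factors, library totals alone, no count filter, DESeq2 1.42.0, the compared groups only, the replicate number as a block, clock class as a covariate or 1 clock class alone, leaving out WT control replicates 5 and 6, and leaving out each library in turn. Leaving out 6 doubted libraries was added after seeing the data. The analysis was checked on simulated counts.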

Additional observations from a re-analysis of the deposited data

Results flagged for a closer look

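In groups of 4 to 6 libraries, the highest or lowest library was tested for its distance from the rest (Dixon's test on CPM). Its nominal rate of about 1 in 20 assumes normal and independent values. CPM were skewed in several groups and the sets share libraries, so the count below is not set against chance. Of 70 sets of values 9 stood out. They were Igf1 in WT CD-HFD replicate 5 (582 CPM) and MlklKO CD-LFD replicate 4 (1053 CPM), and Ghr in MlklKO control replicate 6 (628 CPM). Igfals (188 CPM) and Socs2 (108 CPM) stood out in MlklKO CD-LFD replicate 4 as well, so 3 of the 9 values came from that library. Socs2 also stood out in Ripk3KO control replicate 5 (69.3 CPM), the library in which 9 reads of Ripk3 were counted. Igfbp1 stood out in WT control replicate 3 (203 CPM) and WT CD-LFD replicate 1 (639 CPM), and Igfbp3 in WT CD-HFD replicate 3 (16.3 CPM), the only CD-HFD library of the high clock class.

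The change with diet differed between MlklKO and WT by a test of the difference itself for 5 genes on CD-LFD and 1 on CD-HFD, where 8.45% and 4.12% of all genes were called. On CD-LFD the differences were 0.82 for Igf1, 1.20 for Igfals, 1.06 for Igfbp2, 0.88 for Igfbp4 and 2.34 for Igfbp5. With 1 library left out at a time, these were called in 7, 21, 4, 19 and 9 of 22 fits. On CD-HFD the difference was 3.17 for Igfbp5, called in 19 of 21 fits. On CD-LFD all WT libraries were of the high and all MlklKO libraries of the low clock class, and what this contributes cannot be told apart from genotype.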

How the results depend on the processing

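The fall of Ghr and the rise of Igfbp2 on CD-HFD were called in all 3 genotypes under every alternative run. Scaling by library totals alone turned Igfbp4 to 0.15 in WT, Igf1 to 0.0524 and Igfbp4 to 0.0605 in Ripk3KO, and Igfals to 0.12 in MlklKO, all on CD-HFD against control. Of the member changes on CD-HFD not called in the reported fit, it also turned Stat5b to 0.34, Igfbp3 to 0.23 and Igfbp5 to 0.37 in Ripk3KO, and Stat5b to 0.26, Igfbp1 to 0.28, Igfbp3 to 0.46 and Igfbp4 to 0.34 in MlklKO. With clock class in the model the WT difference between CD-HFD and CD-LFD turned to -0.0673 for Igfbp2 and -0.41 for Igfbp4, and the MlklKO difference from WT on CD-LFD to 0.0231 for Stat5b. With 1 library left out at a time, Igfbp4 in MlklKO against WT controls ran from -0.21 without WT control replicate 6 to 0.14 without replicate 4.

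Counts of the 10 genes called are given here with the percentage of all genes in the same fit, which is of all 35249 genes for DESeq2 and without the count filter. Library totals alone called 3 on CD-HFD in WT (52.7%), Ripk3KO (51.2%) and MlklKO (47.7%), 2 on CD-LFD in WT (32.8%) and Ripk3KO (29.8%), 2 between the diets in MlklKO (34.7%), 2 in MlklKO against WT on CD-LFD (5.87%) and 2 for the MlklKO difference in change on CD-LFD (10.1%). RLE size factors (43.8%) and DESeq2 (20%) each called 3 in Ripk3KO on CD-HFD. Without the count filter 3 were called in WT on CD-LFD (9.5%), 3 in Ripk3KO on CD-HFD (18.4%), and 2 and 1 for the MlklKO differences in change on CD-HFD (1.27%) and CD-LFD (2.5%). With only the compared groups, 2, 2 and 3 were called on CD-LFD in WT (15.1%), Ripk3KO (18.5%) and MlklKO (42.4%), 2 between the diets in Ripk3KO (20.6%), 1 and 2 in MlklKO against WT on the control diet (15.2%) and CD-LFD (4.49%), and 2 for the MlklKO difference in change on CD-LFD (5.55%). Igfbp5 did not pass the filter in 2 of these fits. With clock class in the model, 3 were called in WT on CD-LFD (22.6%), 0 between the diets in WT (15.1%), 0 in MlklKO against WT on CD-LFD (0.00673%) and 3 for the MlklKO difference in change on CD-LFD (6.06%). In 1 clock class alone, 3 were called in Ripk3KO on CD-LFD (31.3%) and 1 between its diets (12.5%), and comparisons that use WT CD-LFD could not be fitted. Without WT control replicates 5 and 6, 2 were called in WT on CD-LFD (43.1%), and 2 and 3 for the MlklKO differences in change on CD-HFD (6.71%) and CD-LFD (10.7%). Without the 6 doubted libraries, 3 were called on CD-LFD in WT (42.3%), 3 in MlklKO (37.6%), and 2 and 3 for those differences (4.07% and 9.3%).

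Leaving out 1 library at a time gave 5 to 8 genes called on CD-HFD in WT (43.9% to 51.2% of all genes), 3 to 5 in Ripk3KO (39.4% to 47.0%) and 3 to 6 in MlklKO (37.0% to 45.9%). On CD-LFD it gave 3 to 6 (21.6% to 35.8%), 1 to 2 (9.11% to 27.6%) and 3 to 5 (29.1% to 38.0%), and between the diets 2 to 4 (16.8% to 21.8%), 0 to 0 (3.32% to 8.52%) and 3 to 4 (12.6% to 21.2%). Against WT controls it gave 0 to 1 in Ripk3KO (2.65% to 6.88%) and 2 to 6 in MlklKO (21.0% to 29.8%), on CD-LFD 0 and 0 to 2 (at most 1.14% and 2.94%), and on CD-HFD 0 in both (at most 0.337%). The differences in change gave 0 in Ripk3KO (at most 1.14%), and 0 to 2 and 2 to 5 in MlklKO on CD-HFD (1.28% to 8.52%) and CD-LFD (5.57% to 12.6%).

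Deviations from group means had a mean r of 0.01 over 146 pairs of libraries with the same replicate number. Over 707 pairs with different numbers it was -0.00238. Of 44 libraries 13 correlated best with their own number. Whether libraries of the same number share a batch or a pairing cannot be told from these values. With the replicate block 2 genes were called in Ripk3KO on CD-LFD, Ghr being the second (-0.65, adjusted p = 0.0272). The block added 5 calls in all, that of Ghr included, and lost 2, Igf1 in Ripk3KO on CD-HFD (-0.49, 0.0506) and the MlklKO difference in change on CD-LFD for Igfbp2 (1.02, 0.0604). Depth limited Igfbp5, with as few as 2 reads in a library, more than the other 9 genes.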

Other observations

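On CD-HFD 23.5%, 24.6% and 24.9% of all genes were called higher in WT, Ripk3KO and MlklKO and 24.1%, 21.7% and 20.3% lower, and the marker counts here stand beside those shares. All 8 cholangiocyte markers rose on CD-HFD in WT, Ripk3KO and MlklKO, with median log2 changes of 3.17, 3.53 and 3.28. Of 12 stellate cell markers 8, 8 and 9 rose and 0 fell. Of 7 lymphocyte markers tested, 3, 5 and 5 rose and 0 fell. Of 10 endothelial markers 7 and 5 fell and 0 rose in WT and Ripk3KO, and 1 fell and 1 rose in MlklKO.

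Igfbp1 in MlklKO controls ran from 38.0 to 429 CPM, and its difference from WT controls was 1.62 ± 0.67 (edgeR, adjusted p = 0.0673). In the low clock class alone the difference was 4.31 (0.0102), against WT control replicates 2 and 4 at 9.28 and 8.92 CPM, whose log2 Arntl to Dbp ratios (-5.84 and -8.01) lay below those of all MlklKO controls (-5.01 to -3.71).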
